A study of Mus musculus with 6 samples.

Results

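The genes described here are Mgmt, Mpg, Alkbh2 and Alkbh3, 4 of the 23783 genes named on the arrays, which encode proteins that remove alkyl groups or alkylated bases from DNA. They were chosen by name, after Mgmt had been seen among the genes lowest in the culture without Trp53, so that its values in every comparison are a description and have no test. Of the 16049 genes with a signal well above background on at least 1 array, all 4 members are part. Mgmt was read by 1 probe, Alkbh2 by 1, and Mpg and Alkbh3 by 2 each.

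The study measured total RNA from mouse fallopian tube organoids, which are cysts of oviduct epithelium grown in matrix, on 6 one-colour Agilent arrays with 1 array per culture. The design text names as reference a control culture, grown from Trp53flox/flox mice and transduced with the vector pLKO.1. A second culture had lost Trp53, the gene of the tumour suppressor p53. To that loss the Pik3ca/Trp53 culture added Pik3caH1047R, an activating form of a PI3-kinase subunit, and the Apc/Trp53 culture added Apc580D, an allele of a Wnt pathway antagonist. Each double mutant was measured prior to inoculation under the skin of mice and a second time after regrowth as organoids from the lesion (called tumour-derived), labelled adenocarcinoma for Pik3ca/Trp53 and cyst for Apc/Trp53. All cultures shared a serum-free medium with EGF, R-spondin1, Noggin, the ROCK inhibitor Y27632, Jagged-1 and the GSK3 inhibitor CHIR-99021. The labels give no mouse age and no number of mice or clones behind a culture, and a further pair in the design text was not analysed here. A difference below is therefore one between 2 arrays, and no replicate spread exists for any culture.

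Alkylating agents attach methyl and larger groups to DNA bases, and cells undo this damage by separate routes. MGMT takes the alkyl group from the O6 position of guanine onto a cysteine of its own and is spent in the act, so its protein must be made anew for each lesion. The AlkB-family enzymes ALKBH2 and ALKBH3 oxidise methyl groups off adenine and cytosine, ALKBH2 mainly in double-stranded and ALKBH3 mainly in single-stranded nucleic acid. MPG is a glycosylase that cuts out alkylated purines and hands the site to base excision repair. MGMT is best known in oncology because methylation of CG dinucleotides in its promoter is linked to loss of its expression and to the response of brain tumours to alkylating drugs.

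The upstream sequences below show CG dinucleotides in Mgmt and in members whose signal varied little. Whether any of them match the CG sites studied in tumours was not determined. The sequences come from RefSeq's 300-base windows on GRCm38.p6, cut to the bases ahead of the first annotated start, and capitals mark each CG. Mgmt is shown at chr7:136894336-136894462 on the plus strand, Mpg at chr11:32226255-32226504 on the plus strand and Alkbh3 at chr2:94010825-94010980 on the minus strand, each 5′ to 3′.

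Mgmt: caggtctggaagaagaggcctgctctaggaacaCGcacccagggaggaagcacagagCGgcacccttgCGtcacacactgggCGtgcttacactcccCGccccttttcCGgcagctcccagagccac

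Mpg: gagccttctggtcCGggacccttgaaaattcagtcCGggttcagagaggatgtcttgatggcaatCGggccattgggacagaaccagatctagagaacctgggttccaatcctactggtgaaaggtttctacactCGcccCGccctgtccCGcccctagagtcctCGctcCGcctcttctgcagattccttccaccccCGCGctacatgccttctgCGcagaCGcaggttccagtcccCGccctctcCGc

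Alkbh3: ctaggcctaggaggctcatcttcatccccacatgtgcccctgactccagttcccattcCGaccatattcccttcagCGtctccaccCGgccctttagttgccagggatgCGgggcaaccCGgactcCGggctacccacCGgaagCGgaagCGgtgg

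The printed stretch of Mgmt holds 6 CG in 127 bases, that of Mpg 14 in 250 bases and that of Alkbh3 9 in 156 bases. Per 100 bases these are 4.72, 5.60 and 5.77, lowest in Mgmt, but the stretches differ in length. Over windows of equal length Mgmt held more CG than Alkbh3, with the counts that follow. Over the full 300-base window the counts were 20 in Mgmt, 22 in Mpg, 13 in Alkbh2 and 18 in Alkbh3, and 26.5% of the 32841 windows in the RefSeq table held at least 20. A second annotated Mgmt start, with its window at chr7:136912848-136913147, had 3 CG, against a median of 7 over all windows. The motif GGGCGG, searched on both strands, was found 4 times in the first Mgmt window, 3 times in Mpg, once in Alkbh2 and not in Alkbh3, and 35.7% of all windows held at least 1. No match to the p53 half-site lay in any of the 5 windows of the members, and 8.36% of all windows held one. These counts describe letters in the reference; DNA methylation and factor binding were not measured.

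Between 45.4% and 51.0% of 56605 probes were well above background on the 6 arrays, no spot was saturated, and the median SD between printed copies of a probe was 0.0394 to 0.0868 log2 units. Epithelial markers were well above background on every array, 8 of 8 in each. Of 6 secretory markers, Wt1 was not on 4 arrays, and Lypd2 was not in tumour-derived Pik3ca/Trp53. The summed secretory level was 31.9 in Pik3ca/Trp53 but 6.82 after its regrowth, and 28.7 in Apc/Trp53 but 61.45 after regrowth. Control had 22.5 and Trp53 loss 9.27. At 2-fold or more, 4 of 6 were lower and 0 higher in tumour-derived Pik3ca/Trp53 than in its source, beside 10.4% and 14.6% of all genes. For tumour-derived Apc/Trp53, 3 of 5 measured were higher and 0 lower, beside 11.3% and 8.04% of all genes. The bearing of these differences on Mgmt was not tested. The Trp53 probe was well above background in control, tumour-derived Pik3ca/Trp53 and Apc/Trp53, with levels of 0.88, -1.64 and -3.59, and not in the other 3 cultures. Its level was 5.72-fold lower in tumour-derived Pik3ca/Trp53 and 22.2-fold lower in Apc/Trp53 than in control, so both kept a signal of the gene their labels give as lost; whether the probe lies in the deleted part was not determined here. The arrays lay in 2 rows of 1 slide, with control and both tumour-derived cultures in row 2 and the other cultures in row 1. Slide row therefore cannot be told apart from genotype where Trp53 loss, Pik3ca/Trp53 or Apc/Trp53 is set against control. Nor can it be told apart from regrowth where either tumour-derived culture is set against its source.

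Mgmt had its highest signal in control and a lower one in every other culture. The background-subtracted intensity of its probe reached 3657 ± 366 in the control culture, where the error is the scanner software's estimate for the spot. Trp53 loss had 53.7 ± 7.01, Pik3ca/Trp53 5.11 ± 5.13 and tumour-derived Pik3ca/Trp53 484 ± 48.6. Apc/Trp53 had 211 ± 21.5, and tumour-derived Apc/Trp53 had 24.0 ± 5.13. The probe was well above background on 5 of 6 arrays and at background in Pik3ca/Trp53, where the estimated error was as large as the signal.

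Scaled to the 75th percentile of each array, the Mgmt levels in log2 units were 3.0 in control, -0.06 in tumour-derived Pik3ca/Trp53, -1.28 in Apc/Trp53, -3.17 in Trp53 loss, -4.55 in tumour-derived Apc/Trp53 and -6.46 in Pik3ca/Trp53. Each step in this order down to tumour-derived Apc/Trp53 was at least 1.22, or 2.33-fold, beyond the spread between copies of a probe on 1 array, which is technical. The last step has no order, because the lowest signal well above background on the Pik3ca/Trp53 array was -4.24, above the level of -4.55 in tumour-derived Apc/Trp53. With dim signals set at the limit of their array, the Mgmt level spanned at least 7.55 log2 units from highest to lowest, where the median span of 16049 genes was 1.00. As measured the span was 9.47, which rests on a signal at background.

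**Figure D1:**
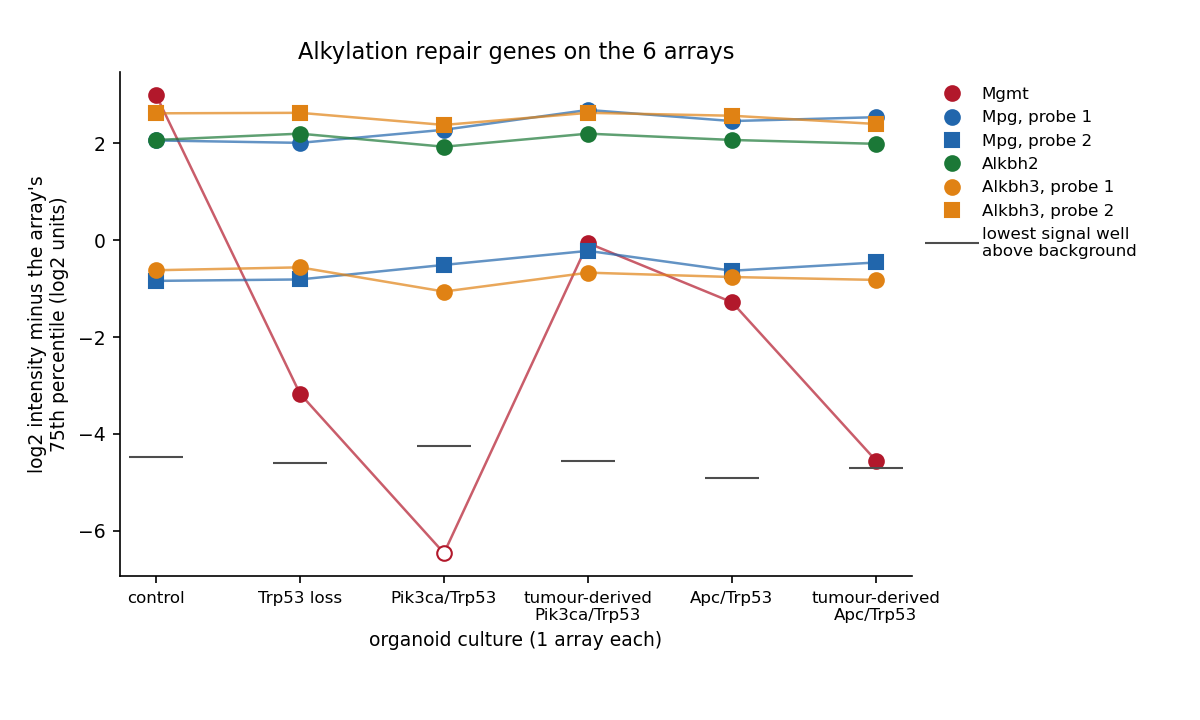
Level of each probe of Mgmt, Mpg, Alkbh2 and Alkbh3 (vertical axis, log2 intensity minus the array's 75th percentile) on the 6 arrays (horizontal axis); filled points are well above background, the open point is not, and horizontal ticks mark the lowest signal well above background on each array. Mgmt ran from 3.0 in control to an open point at -6.46 in Pik3ca/Trp53, while the other probes kept nearly level lines.

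Against control, Mgmt was at least 2-fold lower in all 5 other cultures, and it was the only 1 of the 4 members past that size in any of them. These 5 comparisons share the control array and are given side by side. In Trp53 loss the log2 difference was -6.17, a 72.0-fold lower level, which was the 3rd lowest of 14358 genes; 7.58% of genes were at least 2-fold lower in that comparison. In Pik3ca/Trp53 it was -9.47 as measured and at least 151-fold lower once the dim signal is raised to the array's background limit, with 11.3% of genes at least 2-fold lower.

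Among the cultures with a second mutation, the smallest distance from control was in tumour-derived Pik3ca/Trp53, at -3.06 or 8.33-fold lower, where 13% of genes were at least 2-fold lower. In Apc/Trp53 the difference was -4.28, or 19.4-fold lower, beside 9.7% of genes. In tumour-derived Apc/Trp53 it was -7.55, or 188-fold lower, again beside 13% of genes. The level of -4.55 there was near -4.71, the lowest signal well above background on that array. Both tumour-derived cultures lay in the same slide row as control, and Mgmt was at least 8-fold lower in each. They also differ from control in genotype and regrowth, and the part of slide row in any comparison was not tested. A level at least 8-fold below control in all 5 cultures was found for 58 of 13908 genes measured in every comparison, Mgmt among them, and a level at least 2-fold below for 357, or 2.57%. Since the members were chosen on these values, nothing is read from the shares.

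**Figure D2:**
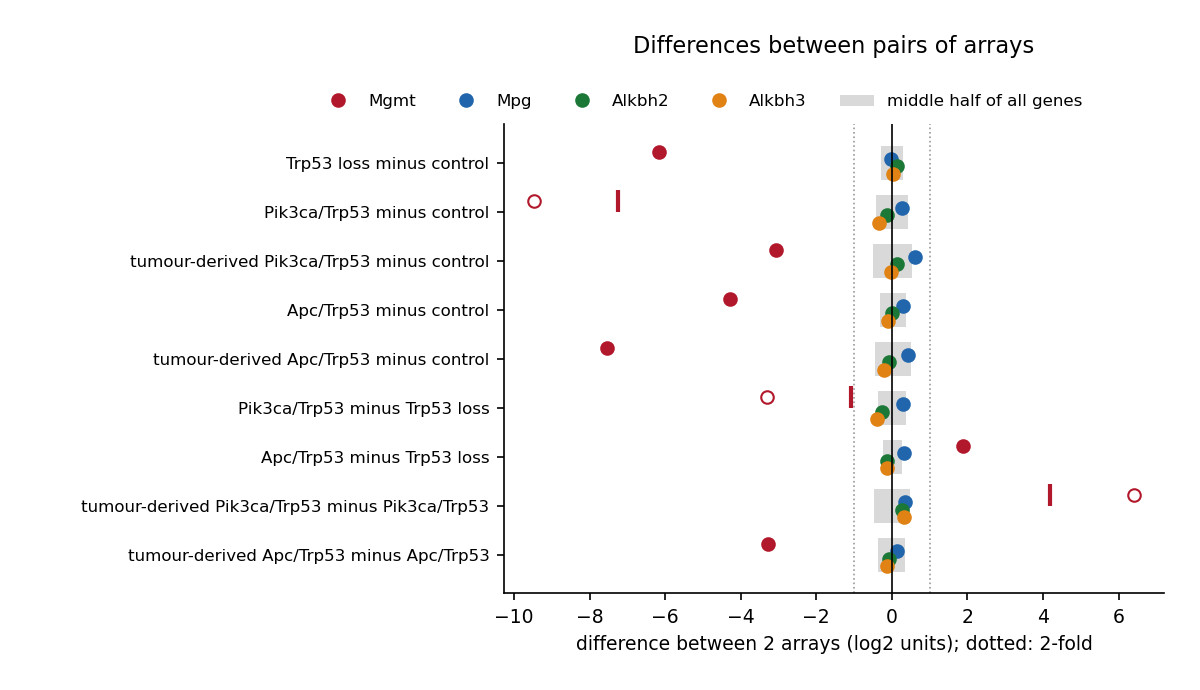
Log2 difference between 2 arrays (horizontal axis) in the 9 comparisons (vertical axis) for the 4 members; open points rest on a dim signal, the vertical tick beside each is the difference with that signal raised to the background limit, grey bars span the 25th to the 75th percentile of all genes and dotted lines mark 2-fold. Mgmt lies outside the dotted lines in every comparison, from -9.47 to 6.41, and the other members lie inside them.

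Adding a second mutation to Trp53 loss went with opposite differences of Mgmt. Apc/Trp53 had 3.70-fold more Mgmt signal than Trp53 loss, a log2 difference of 1.89, where 5.44% of 14460 genes were higher by 2-fold or more and 5.19% lower. Pik3ca/Trp53 had less, by at least 2.10-fold, where 8.54% of genes were lower by 2-fold or more and 9.15% higher. Both comparisons share the Trp53 loss array, and all 3 arrays lay in the same slide row. With normexp background correction the Pik3ca/Trp53 difference was -0.73 and so under 2-fold, and a difference between the 2 comparisons was not tested.

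Tumour-derived cultures departed from their sources in opposite directions as well. In tumour-derived Pik3ca/Trp53 the Mgmt signal was at least 18.2-fold higher than before inoculation, with a log2 difference of 6.41 as measured, and 14.6% of 14724 genes were at least 2-fold higher. In tumour-derived Apc/Trp53 it was 9.67-fold lower than before inoculation, a log2 difference of -3.27, and 8.04% of 14884 genes were at least 2-fold lower. That regrown signal was near the background limit of its array. The first regrown culture thus came to rest nearest to control and the second among the lowest.

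Markers of other cells also moved in these cultures. Of 10 fibroblast markers, 4 were well above background in tumour-derived Pik3ca/Trp53, 2 in tumour-derived Apc/Trp53, 1 in Pik3ca/Trp53 and 0 in control, Trp53 loss and Apc/Trp53. Their summed level was 5.10 in tumour-derived Pik3ca/Trp53 and 0.107 to 0.195 in the other 5 cultures. In tumour-derived Pik3ca/Trp53 the markers above background were Col1a1, Col1a2, Pdgfra and Postn, each at least 2-fold higher as measured than in its source, and Col3a1, Dcn, Lum, Pdgfrb, Thy1 and Fap were not above background. Of 9 leukocyte markers 5 or 6 were above background on each array, with summed levels of 74.2 in control, 57.7 in tumour-derived Pik3ca/Trp53, 33.3 in Trp53 loss, 22.4 in Pik3ca/Trp53, 19.3 in Apc/Trp53 and 11.2 in tumour-derived Apc/Trp53. The control and tumour-derived Pik3ca/Trp53 cultures were thus highest in this sum as in Mgmt. Of these markers Ptprc was above background in tumour-derived Apc/Trp53 alone, and Adgre1 on no array. Of 6 endothelial markers 2 to 4 were above background, with summed levels of 0.371 to 1.59, and Tek and Emcn were above background on no array. Multiciliated cell markers had a summed level of 6.69 in control and 1.78 to 3.05 elsewhere, with 9 of 12 above background in control and 4 to 10 in the others. In bulk RNA, fewer cells of a type and less RNA per cell cannot be told apart, and the part of these cells in the Mgmt signal was not tested.

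Mpg, the alkyladenine glycosylase, varied by at most 1.55-fold over the 6 cultures. Its stronger probe had levels of 2.06 in control and 2.01 in Trp53 loss, of 2.28 in Pik3ca/Trp53 and 2.69 after its regrowth, and of 2.46 in Apc/Trp53 and 2.54 after regrowth. The weaker probe gave -0.84, -0.81, -0.51, -0.22, -0.63 and -0.46 in the same order. Both put tumour-derived Pik3ca/Trp53 highest and control and Trp53 loss lowest, and the largest difference for the gene in the 9 comparisons was 0.62, or 1.54-fold, between tumour-derived Pik3ca/Trp53 and control. That size was exceeded by many genes there, since 56.2% had a smaller one.

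Alkbh2, the dioxygenase for double-stranded DNA, was the member that varied least. Its probe had levels of 2.07 in control and 2.20 in Trp53 loss, of 1.93 in Pik3ca/Trp53 and 2.20 after its regrowth, and of 2.07 in Apc/Trp53 and 1.99 after regrowth. The span of 0.28 log2 units, or 1.21-fold, was narrower than that of most genes, as only 1.97% of the 16049 had a smaller one.

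Alkbh3, which acts on single-stranded DNA and RNA, spanned 0.38 log2 units, or 1.30-fold. One of its probes read -0.62 in control and -0.56 in Trp53 loss, -1.06 in Pik3ca/Trp53 and -0.67 after its regrowth, and -0.76 in Apc/Trp53 and -0.82 after regrowth. The other read 2.62, 2.63, 2.38, 2.63, 2.57 and 2.40 in that order, and both had their lowest value in Pik3ca/Trp53. Over Mpg, Alkbh2 and Alkbh3, the 27 differences in the 9 comparisons ran from -0.38 to 0.62, and 0 of them reached 2-fold. All 6 cultures therefore had signal for these 3 genes within a narrow band while Mgmt ranged over orders of magnitude.

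Other repair genes were compared to see how the Mgmt differences sit among them. The 86 genes of 6 lists covered the remaining AlkB-family enzymes, the ASCC complex that works with ALKBH3, base excision repair, mismatch repair, nucleotide excision repair, and homologous recombination with the Fanconi anaemia pathway, and all 86 were measured. In Trp53 loss against control, 2 were at least 2-fold higher and 1 lower, with a median difference of 0.18 beside 0.03 for all genes, of which 5.86% were higher. Against control, Pik3ca/Trp53 had 9 higher and 2 lower beside 10.6% of genes higher, and tumour-derived Pik3ca/Trp53 had 7 and 1 beside 15.1%. Apc/Trp53 had 3 higher and 1 lower beside 8.08% of genes higher, and tumour-derived Apc/Trp53 had 10 and 2 beside 14.7%. The shares of the list that were higher were 2.33%, 10.5%, 8.14%, 3.49% and 11.6% in the order given, so that of Pik3ca/Trp53 was near the share of all genes. The shares that were lower were 1.16%, 2.33%, 1.16%, 1.16% and 2.33% in the same order. Of all genes, 7.58%, 11.3%, 13%, 9.7% and 13% were lower in these comparisons. With arrays scaled to their median instead, 6 in place of 3 were apart from control in Trp53 loss and 8 in place of 4 in Apc/Trp53.

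Ercc5 encodes the nuclease that cuts 3′ of a lesion in nucleotide excision repair. It was the single gene of the 86 at least 2-fold lower than control in all 5 cultures. Among all genes this held for 357 of 13908, or 2.57%, a larger share. Ercc5 is also among the 24 p53 target genes counted below. Its differences ran from -1.17 in Apc/Trp53 to -1.43, or 2.69-fold lower, in tumour-derived Apc/Trp53, the lowest value of any of the 86 in the comparisons with control. Fancd2, a central protein of the Fanconi anaemia pathway, was the single one at least 2-fold higher in all 5 as measured. For this direction the share of all genes was not counted. The Fancd2 control signal was not above background. With the limit in its place the excess was at least 1.05-fold in Apc/Trp53 and at least 3.13-fold in Pik3ca/Trp53.

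The remaining AlkB-family genes and the ASCC genes stayed with the other 3 members. None of these 11 genes was 2-fold from control in any culture. Alkbh8, which modifies transfer RNA, was the 1 of them past 2-fold elsewhere, 2.37-fold lower in tumour-derived Pik3ca/Trp53 than in its source.

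In Pik3ca/Trp53 against Trp53 loss, 8 of the 86 were at least 2-fold higher and 3 lower, shares of 9.30% and 3.49% beside 9.15% and 8.54% of all genes. In Apc/Trp53 against Trp53 loss 0 were apart in either direction, beside 5.44% and 5.19%. Tumour-derived Pik3ca/Trp53 had 1 higher and 5 lower than its source as measured, shares of 1.16% and 5.81% beside 14.6% and 10.4% of all genes. The DNA glycosylase Neil2 was the higher one, by at least 2.61-fold. The lower ones included Parp1, a sensor of strand breaks, 2.05-fold lower, the mismatch repair gene Pms1, 2.85-fold lower, and Fanca, of the Fanconi anaemia core complex, at least 1.59-fold lower. Tumour-derived Apc/Trp53 had 4 higher and 1 lower than its source as measured, shares of 4.65% and 1.16% beside 11.3% and 8.04% of all genes. Neil3, a glycosylase, was 3.30-fold higher and Fanci, the partner of FANCD2, 2.59-fold higher, while Msh3, a mismatch recognition gene, was at least 1.66-fold lower. The summed level of 25 proliferation genes was 86.4 in Apc/Trp53 and 142 after its regrowth, and its part in these differences was not tested.

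**Figure D3:**
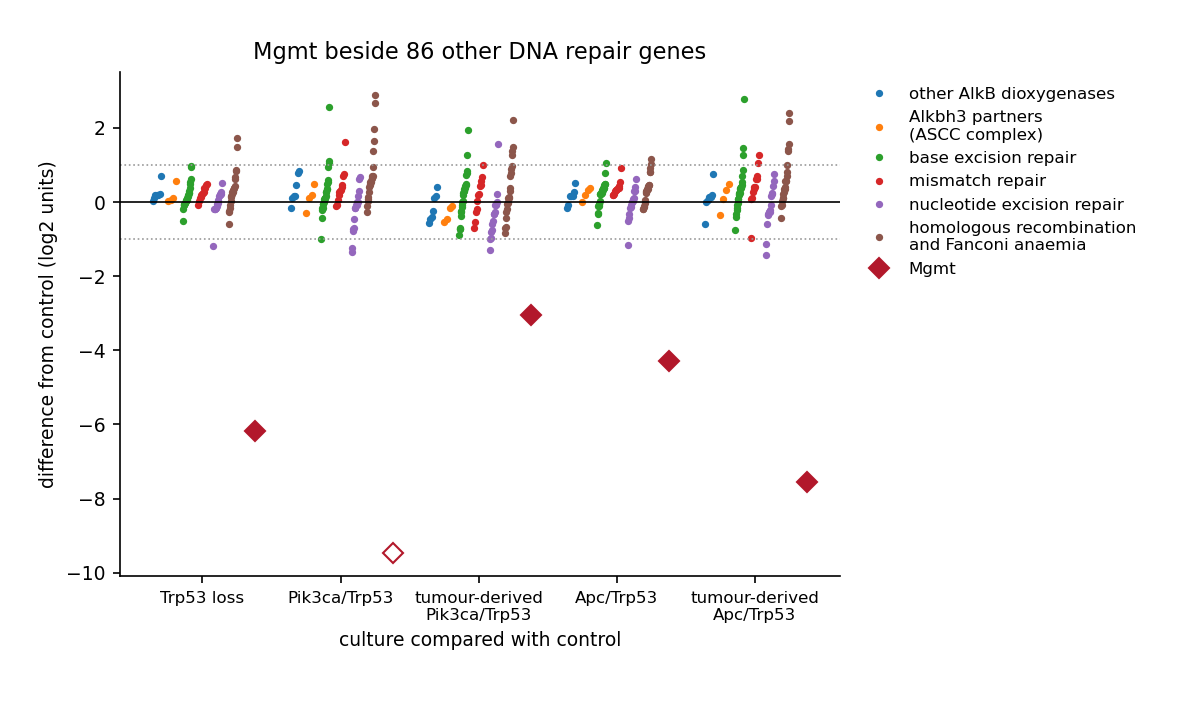
Log2 difference from control (vertical axis) in the 5 other cultures (horizontal axis) for 86 DNA repair genes, coloured by list, and for Mgmt (diamonds, open where the signal was dim); dotted lines mark 2-fold. The lowest of the 86 was Ercc5 at -1.43 in tumour-derived Apc/Trp53, and Mgmt lay below every one of them, at -3.06 or lower.

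The genes whose levels over the 6 arrays ran most like those of Mgmt were named by the root mean square distance between levels centred on each gene's mean. With 6 arrays of different cultures, this likeness is a description of these arrays. Tmprss11b was nearest, at 1.31 log2 units (Pearson r of 0.93), then 2300002M23Rik at 1.41 (0.92), Phlda3 at 1.44 (0.95), Pbp2 at 1.48 (0.92), Trp53 at 1.49 (0.88) and Pde6h at 1.57 (0.95). The median distance of the 16048 other genes was 3.12. Several of these genes were dim on some arrays, and with those dim signals set at the limit of their array Phlda3 came first at 0.84 and Trp53 second at 0.89, followed by Anxa8, 2300002M23Rik, Plxdc2 and Pbp2, so that 4 of the 6 were shared.

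Phlda3, a p53 target gene that restrains AKT, was above background on all 6 arrays. Its levels were 5.23 in control, 3.07 in tumour-derived Pik3ca/Trp53, 1.73 in Apc/Trp53, 1.32 in Trp53 loss, 0.23 in Pik3ca/Trp53 and -0.48 in tumour-derived Apc/Trp53. The first 4 places are in the same order as for Mgmt, over a narrower span. The Trp53 probe itself was highest in control, then tumour-derived Pik3ca/Trp53, then Apc/Trp53, the same top 3 as Mgmt, and had no order among the other cultures because it was not above background there.

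Cdkn1a, the p53-induced inhibitor of cyclin-dependent kinases, was 9th in likeness to Mgmt as measured and 17th with dim signals at their limit, and its 2 probes differed. One, above background on every array, read 4.18 in control and 0.10 in Trp53 loss, 0.78 in Pik3ca/Trp53 and 1.97 after its regrowth, and 1.37 in Apc/Trp53 and 1.99 after regrowth. That probe did not share the low Mgmt value in tumour-derived Apc/Trp53. The other probe read 0.72 in control, -3.88 in tumour-derived Pik3ca/Trp53 and -4.10 in Apc/Trp53 and was not above background in the other 3 cultures. Of 24 p53 target genes, 16 were at least 2-fold lower than control in Trp53 loss beside 7.58% of all genes, 15 (with 1 higher) in Pik3ca/Trp53 beside 11.3%, and 16 in Apc/Trp53 beside 9.7%. In the tumour-derived cultures 13 were lower and 2 higher for Pik3ca/Trp53 and 18 were lower for Apc/Trp53, each beside 13% of all genes lower. The list medians ran from -1.57 to -1.21 log2 units over these 5 comparisons.

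**Figure D4:**
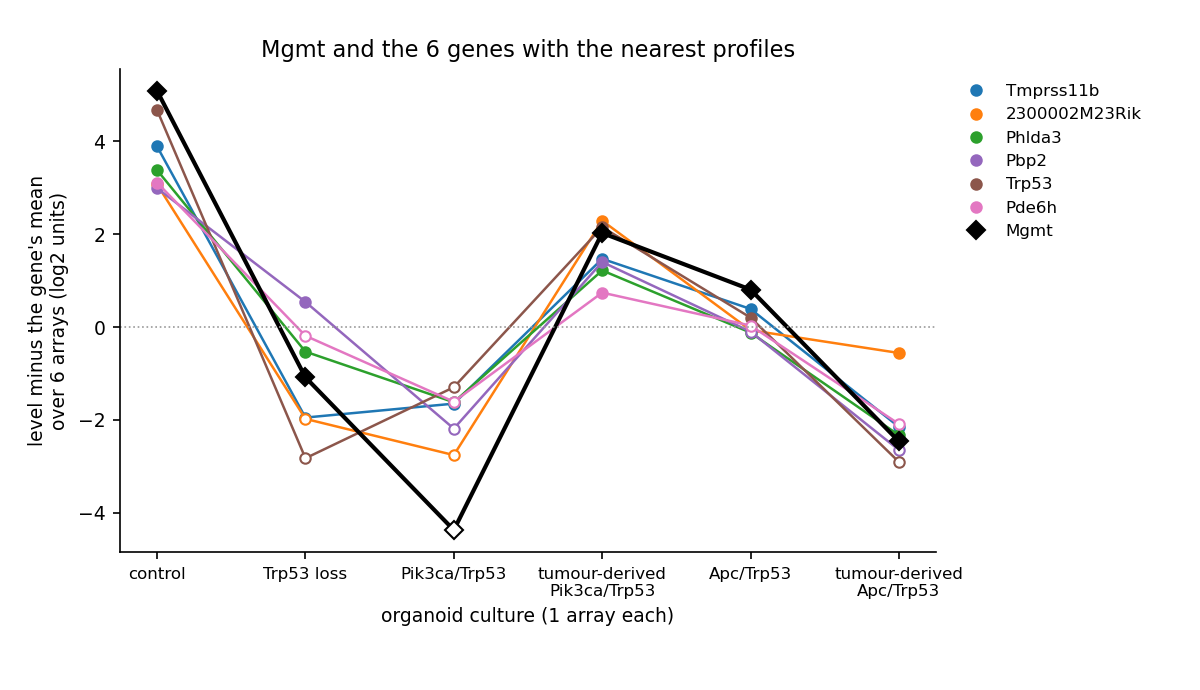
Level minus the gene's own mean over the 6 arrays (vertical axis, log2 units) for Mgmt (black diamonds) and the 6 genes with the nearest profiles, by culture (horizontal axis); open symbols mark arrays on which at least 1 probe of the gene was not well above background. Each of the 7 genes has its highest point in control, and Mgmt reaches lowest, in Pik3ca/Trp53.

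The genes beside Mgmt on mouse chromosome 7 showed no such low levels where they could be measured. In the RefSeq order of GRCm38.p6 the next protein-coding gene before Mgmt is Mki67, a marker of dividing cells, and the next after it is Ebf3, which was not above background on any array. The 4 nearest measured genes on each side were Mki67, Ptpre, Dock1 and D7Ertd443e before, and 9430038I01Rik, Glrx3, Mapk1ip1 and Ppp2r2d after, with 6 unmeasured genes passed over. In Trp53 loss against control their differences ran from -0.45 for Ptpre to 0.68 for Mki67, beside -6.17 for Mgmt. D7Ertd443e lay near or below the background limit in control and could not show a clear fall. None of the other 7 was 2-fold lower than control in any culture, the lowest being -0.91, and 3 of the 8 were at least 2-fold higher in some culture as measured. The Mki67 level was 0.95 in control and 1.63 in Trp53 loss, 3.61 in Pik3ca/Trp53 and 3.21 after its regrowth. It was 2.18 in Apc/Trp53 and 3.73 after regrowth. The lowest Mki67 value was in control, where Mgmt was highest, and the next lowest was in Trp53 loss, where Mgmt was at -3.17. A relation of Mgmt to Mki67 was not tested.

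**Figure D5:**
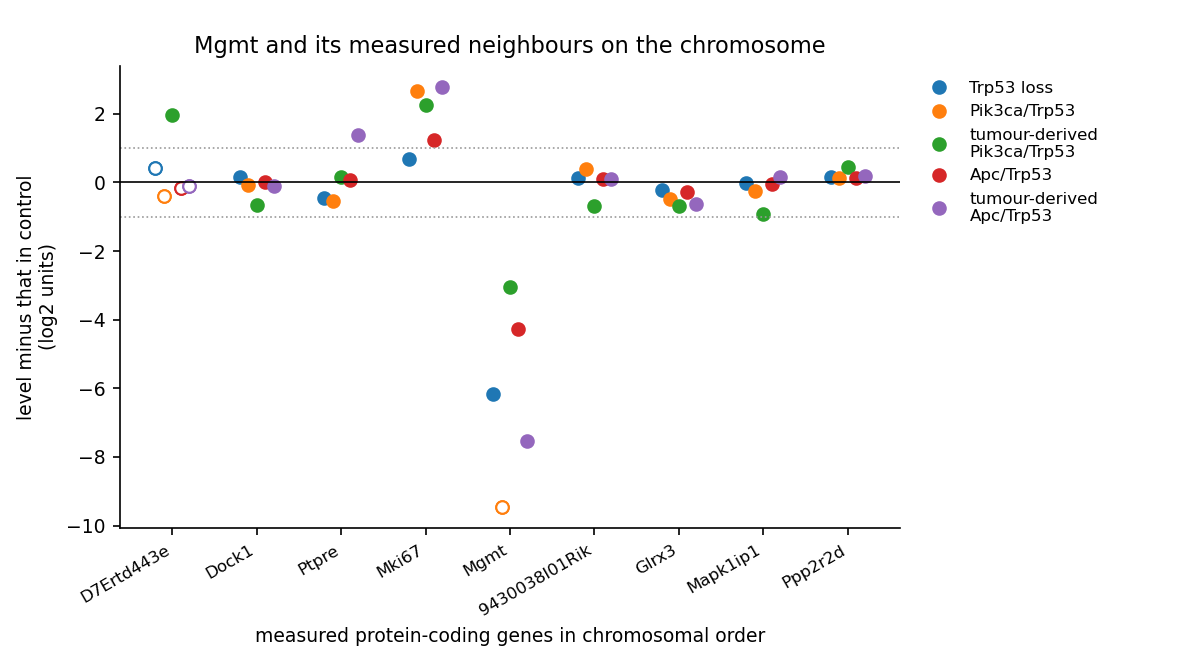
Level minus that in control (vertical axis, log2 units) in the 5 other cultures for Mgmt and the 4 measured protein-coding genes on each side, in chromosomal order (horizontal axis, not to scale); open points mark cultures in which at least 1 probe of the gene was dim, and dotted lines mark 2-fold. The neighbours stay above -1 in every culture, with D7Ertd443e near the background limit, and Mgmt lies between -3.06 and -9.47.

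Mgmt, but none of the other 3 members, is also in the authors' deposited table of 2047 probes. The authors' deposited table gives it log2 values of 6.71 in control and 0.58 in Trp53 loss, -2.72 in Pik3ca/Trp53 and 3.67 after its regrowth, and 2.46 in Apc/Trp53 and -0.84 after regrowth. Differences between its columns matched those of the scanner intensities with a slope of 1 and an offset of at most 0.04 from the scaling used here, and the centring of that table stays unknown. Its column medians were 0.03, -0.02, 0.15, -0.05, -0.32 and -0.20, with the cultures taken as in the sentence on Mgmt.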

How the data were processed

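Total RNA of 6 organoid cultures was hybridised to 6 one-colour Agilent arrays, and each group is 1 array. The deposited scanner files hold a background-subtracted intensity for each spot made with the scanner program Agilent Feature Extraction 11.0.1.1 (per the file headers and the submitters' processing notes), with flags for signals well above background. The authors' deposited table gives log2 values for 2047 probes, with centring and probe choice not given in the sources used here.

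Control spots and outlier flags were left out, and spots of 1 probe were averaged. Levels are log2 intensity minus the array's 75th percentile over all spots that are not controls. Accessions matched to RefSeq named 34561 of 56605 probes, for 23783 genes. A gene's difference is the mean over its probes that pass the background flag on either array of the pair. A dim signal gives "at least" a fold, from the lowest signal well above background on its array. With 1 array per group nothing was tested, and differences of 1 log2 unit or more were counted; the number of arrays limits the precision. In 9 comparisons, 5 share the control array. Members and lists were chosen with earlier results of these data known. The text names the 4 members, the largest rise and fall of each repair list in Trp53 loss against control and in both tumour-derived cultures against their sources, repair genes that stood apart in all 5 comparisons with control, the 6 genes nearest to Mgmt in profile, 4 measured neighbours on each side, and Trp53, Cdkn1a and Mki67. Ercc5 and Fancd2 were named after their values were seen. A gene that the rule names is not reported here. The gene differences and profile distances were tested on simulated data. Median scaling, quantile normalization, filters on dim probes and the deposited table were tried as other settings, and normexp with an offset of 50, a percentile over distinct probes and dim signals at their limit were later choices. The software was Python 3.11.15 (pandas 2.3.3, numpy 2.4.6, matplotlib 3.10.9) and R 4.3.3 (limma 3.58.1).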

Additional observations from a re-analysis of the deposited data

Results flagged for a closer look

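Mgmt and Phlda3 each differed in opposite directions between a tumour-derived culture and its source in the 2 genotypes. The log2 difference of Mgmt was 6.41 in Pik3ca/Trp53 and -3.27 in Apc/Trp53. The first rests on a source signal not above background and is at least 18.2-fold. The second rests on a regrown signal near the background limit of its array. For Phlda3 the values were 2.84 and -2.21, from signals above background on all 4 arrays. With 1 array on each side, the difference between the genotypes was not tested.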

How the results depend on the processing

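Of 63 values of Mgmt under other settings, 0 changed sign and 1 fell below 2-fold. Of these, 21 moved by more than the median SD between probes of a gene. Not all settings could change a value. Keeping dim probes could not, since the only Mgmt probe was already used in each comparison, and the deposited table matches the same scanner intensities. The filter on all 6 arrays, which drops the Mgmt probe, is not among the 63. Median scaling gave -5.97 in Trp53 loss, -9.20 in Pik3ca/Trp53 and -4.02 in Apc/Trp53 against control, and -3.61 in tumour-derived Apc/Trp53 against its source. Quantile normalization gave -9.83 and -7.79 in Pik3ca/Trp53 and tumour-derived Apc/Trp53 against control, -3.69 in Pik3ca/Trp53 against Trp53 loss, and 6.75 and -3.51 in the tumour-derived Pik3ca/Trp53 and Apc/Trp53 cultures against their sources. Normexp on median signals, run because the files hold no mean signal for the planned version, which was not run, compresses dim signals by its offset. It gave -4.96, -5.69, -2.82, -3.86 and -5.48 against control in Trp53 loss, Pik3ca/Trp53 before and after regrowth, and Apc/Trp53 before and after regrowth, in that order. It gave -0.73 and 1.1 for Pik3ca/Trp53 and Apc/Trp53 against Trp53 loss, and 2.87 and -1.61 against the sources. Dim signals at their limit gave -7.24 for Pik3ca/Trp53 against control, -1.07 against Trp53 loss and 4.18 for its tumour-derived culture. The count of members at least 2-fold apart, 1 in each comparison, was 0 in Pik3ca/Trp53 against Trp53 loss under normexp, and 0 in all 9 comparisons where probes had to be above background on all 6 arrays, because the Mgmt probe then drops out. Mpg, Alkbh2 and Alkbh3 stayed under 2-fold in every setting run.

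Median scaling moved the median of all genes to 0.32 from 0.06 in Apc/Trp53 against control. The higher share of genes called was 43.6% and 57.0% under the 2 scalings in Trp53 loss, 48.5% and 63.9% in Pik3ca/Trp53 and 45.5% and 61.8% in Apc/Trp53 against control, and 58.5% and 37.5% in tumour-derived Apc/Trp53 against its source. Repair genes apart from control then numbered 6 in place of 3 in Trp53 loss and 8 in place of 4 in Apc/Trp53. In Trp53 loss against control, 268 genes were higher and 390 lower under normexp, and 348 and 492 with probes above background on all 6 arrays, beside 841 and 1088. The background limit bounds what can be said of Mgmt in Pik3ca/Trp53. No paired analysis was possible because groups of 1 array share a single replicate number. A fit over both genotypes before and after regrowth was not run.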
